A study of Homo sapiens with 15 samples.

Results

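The cytosolic ribosomal protein (RP) genes encode the proteins of the large (RPL) and small (RPS) subunits of the cytoplasmic ribosome. The members were the genes whose symbol is RPL or RPS followed by a number, with an optional A, X or L and further digits. Symbols of pseudogenes and of the ribosomal S6 kinases did not match. The rule took 80 of the 33158 genes in the table, 49 of them RPL and 31 RPS. The study profiled triple negative breast cancer cell lines by mRNA sequencing after capture on oligo(dT) beads. SUM149PT (SUM149 in the labels) and HCC1937 cells had been stained with antibodies to CD44 and CD24 and sorted into a cancer stem cell (CSC) fraction and a non-CSC fraction. SUM159PT cells (SUM159 in the labels) were not sorted and were labelled as cancer stem cells. Each of these 5 groups held 3 libraries, 15 in all. Levels were FPKM, which count sequenced fragments relative to transcript length and to a library's mapped total. The depth of the libraries was unknown. Judged from the spacing of their lowest values, it ran from about 0.853 to 1.08 times that of the first SUM149PT CSC library. The estimate gave 1.01 for that library itself, so it is approximate.

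A ribosome is built in the nucleolus and cytoplasm from ribosomal RNA and these proteins, which have to be made in matched amounts. Their mRNAs begin with a run of pyrimidines, the TOP tract, through which mTOR signalling governs their translation, and translation can change with no change in mRNA. Loss of a copy of RPS19 or of several other RP genes causes Diamond-Blackfan anaemia, and RP genes are among the most highly expressed genes of growing tumour cells.

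The SUM159PT libraries stood apart from the 12 sorted libraries in their totals. Their FPKM summed to 652082, 646697 and 634746, against 291276 to 366532 in the sorted libraries. Outside the members and RP pseudogene rows the sums were closer, at 373657 to 380547 against 244215 to 323401. They held 8534, 8630 and 8670 genes above 1 FPKM, against 11249 to 11997. The 50 highest genes took 47.9%, 47.4% and 47.1% of their FPKM, against 23.1% to 27.5%. The highest gene was RPL37A or the pseudogene RPL13AP5 in SUM159PT. In the 12 sorted libraries it was not an RP gene. Within each group, the libraries correlated at 0.987 or more over all genes and at 0.977 or more over the members, and no library held the values of another. Line, sorting and library cannot be told apart in SUM159PT, so its comparisons are given last.

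The fractions were described with lists of cell type markers. The epithelial list held CD24 and the mesenchymal list CD44, the antigens on which the cells had been sorted. The results for CD24 and CD44 are therefore no independent check of the fractions, and both count in the sums, calls and medians below. All 8 epithelial markers were at 1 FPKM or more in both SUM149PT fractions. They summed to 157, 163 and 162 FPKM in the SUM149PT CSC libraries and to 2497, 2447 and 2485 FPKM in the non-CSC libraries, with KRT19 the most abundant in both (means 41.9 and 1127 FPKM). They summed to 619, 572 and 524 FPKM in HCC1937 CSC, led by KRT8 (216 FPKM), and to 1935, 1918 and 1659 FPKM in HCC1937 non-CSC, led by KRT18 (611 FPKM). The epithelial sum was thus lower in the CSC fraction of each line with no overlap, and 8 of 8 markers were called lower in both lines, at a median log2 fold change of -4.46 in SUM149PT and -2.21 in HCC1937. In SUM159PT the sum was 292, 277 and 291 FPKM, with 2 of 8 markers at 1 FPKM or more and KRT18 (153 FPKM) leading.

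The 6 mesenchymal markers ran the other way. They summed to 2763, 2931 and 2833 FPKM in SUM149PT CSC and to 565, 554 and 619 FPKM in its non-CSC fraction. They summed to 1263, 1111 and 1094 FPKM in HCC1937 CSC and to 253, 326 and 308 FPKM in its non-CSC fraction. VIM was the most abundant in every group, at means of 2089.9, 244, 917, 156 and, in SUM159PT, 1078 FPKM, where the sums were 1308, 1323 and 1339 FPKM. Of the 6, 6 were called higher in SUM149PT CSC (median 2.83) and 5 in HCC1937 CSC (median 1.80). No epithelial or mesenchymal marker was at 0 throughout a group.

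Markers of other cell types were low, apart from COL1A1 and CD14. The 4 leukocyte markers summed to 2.69, 3.08 and 2.22 FPKM in SUM149PT CSC, to 52.4, 48.6 and 52.9 FPKM in its non-CSC fraction, to 65.1, 62.5 and 53.6 FPKM in HCC1937 CSC, to 29.6, 32.8 and 28.6 FPKM in its non-CSC fraction and to 19.7, 19.9 and 16.6 FPKM in SUM159PT. CD14 carried the list in each group (2.66, 51.3, 60.3, 30.3 and 18.7 FPKM), CD3E was listed at 0 in all 15 libraries, and 2, 2, 2, 1 and 3 of the 4 markers were at 0 in every library of the group. The 3 fibroblast markers summed to 235, 237 and 232 FPKM in SUM149PT CSC, to 48.8, 52.0 and 55.0 FPKM in its non-CSC fraction, to 11.4, 11.3 and 10.9 FPKM in HCC1937 CSC, to 5.89, 6.94 and 7.63 FPKM in its non-CSC fraction and to 30.2, 33.0 and 34.4 FPKM in SUM159PT, with COL1A1 leading (216, 49.0, 11, 6.76 and 20.1 FPKM). The endothelial markers PECAM1 and VWF summed to 0.171, 0.154 and 0.128 FPKM in SUM149PT CSC, to 1.01, 1.14 and 1.08 FPKM in its non-CSC fraction, to 0.743, 0.65 and 0.523 FPKM in HCC1937 CSC, to 0.613, 0.549 and 0.571 FPKM in its non-CSC fraction and to 0.0699, 0.0653 and 0.0804 FPKM in SUM159PT. PECAM1 was the higher of them in 4 groups and VWF in SUM149PT non-CSC. The leukocyte, fibroblast and endothelial lists had 1, 3 and 2 tested genes in SUM149PT, with 0, 3 and 0 called higher and 1, 0 and 2 lower in the CSC fraction. In HCC1937 they had 1 tested gene each, of which 1, 1 and 0 were called higher and 0 lower. The part of any marker list in the RP results was not tested. From bulk libraries, fewer cells of a type and less RNA per cell cannot be told apart.

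The summed share of the members was highest in SUM159PT, intermediate in SUM149PT CSC and lowest in SUM149PT non-CSC. The 80 members took 9.34%, 10.5% and 10.1% of all FPKM in the 3 SUM149PT CSC libraries and 6.17%, 5.86% and 6.64% in the 3 non-CSC libraries. In HCC1937 they took 7.87%, 7.61% and 6.9% in the CSC libraries and 7.43%, 7.44% and 6.92% in the non-CSC libraries. SUM159PT had 24.0%, 23.4% and 23.7%. The SUM149PT fractions did not overlap, the HCC1937 fractions did, and each SUM159PT library was above each sorted library. Group means were 9.99% ± 0.592, 6.22% ± 0.393, 7.46% ± 0.502, 7.26% ± 0.300 and 23.7% ± 0.299 (SD, n = 3 libraries each).

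In SUM149PT the CSC fraction held 3.77 percentage points more than the non-CSC fraction, a ratio of 1.61, and all 3 CSC libraries were above all 3 non-CSC libraries (exact two-sided permutation p = 0.10, adjusted over 6 pairs 0.12). In HCC1937 the difference was 0.196 points, a ratio of 1.03 (exact permutation p = 0.60, adjusted 0.60). It was -0.00829 points without HCC1937 CSC replicate 1. HCC1937 CSC was 2.53 points below SUM149PT CSC (difference -2.53, ratio 0.747), and HCC1937 non-CSC was 1.04 points above SUM149PT non-CSC (ratio 1.17), with no overlap in either pair. SUM159PT was 13.7 points above SUM149PT CSC (ratio 2.37) and 16.2 points above HCC1937 CSC (ratio 3.18), with no overlap. Each of these 4 differences had an exact permutation p of 0.10, adjusted 0.12. With 3 libraries against 3 the exact test cannot go below 0.10, so no share could pass 0.05.

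Both subunits followed the same order of groups. The RPL genes averaged 6.09% in SUM149PT CSC, 3.61% in SUM149PT non-CSC, 4.61% in HCC1937 CSC, 4.49% in HCC1937 non-CSC and 14.1% in SUM159PT. The RPS genes averaged 3.9%, 2.61%, 2.85%, 2.77% and 9.53% in that order. RPL37A, a zinc-binding protein of the large subunit and the highest member, supplied 11.1%, 9.08%, 5.85%, 6.08% and 14.0% of the members' sum. Rows of RP pseudogenes, which share sequence with the members, held a further 7.23%, 4.38%, 4.42%, 4.23% and 17.7% of all FPKM, so that members and pseudogene rows together held 17.2%, 10.6%, 11.9%, 11.5% and 41.4%. The members' summed FPKM averaged 30310, 19441, 24017, 25479 and 152654 in the 5 groups.

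**Figure D1:**
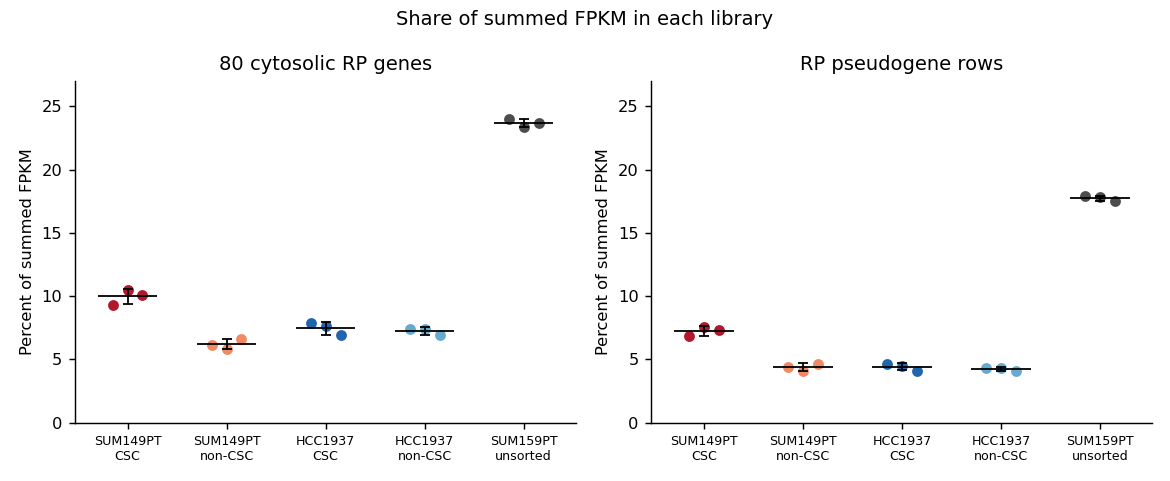
Percent of all FPKM (y axis) held by the 80 members (left) and by the RP pseudogene rows (right) in the 5 groups (x axis), with 1 point per library, the mean as a line and the SD as bars (n = 3). On both sides SUM159PT is highest (means 23.7% and 17.7%), SUM149PT CSC (9.99% and 7.23%) lies above SUM149PT non-CSC (6.22% and 4.38%), and the HCC1937 fractions overlap.

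Levels of the members spread over several orders of magnitude. Of the 80, 73 were above 0 in all 15 libraries, 73 averaged at least 1 FPKM over the 15 libraries, 47 at least 100 FPKM and 18 at least 1000 FPKM. Among the highest by mean were RPL37A (5882 FPKM), RPS21 (2888 FPKM), RPL8 (2575 FPKM) and RPL27 (2510 FPKM). At the other end, 10 members had a mean under 1 FPKM in at least 1 group, among them RPL10L, RPL21, RPL36A, RPL39L, RPL3L, RPL7, RPS18, RPS26 and RPS27. Each library had 2 to 5 members at 0 and 7 to 9 members under 1 FPKM.

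**Figure D2:**
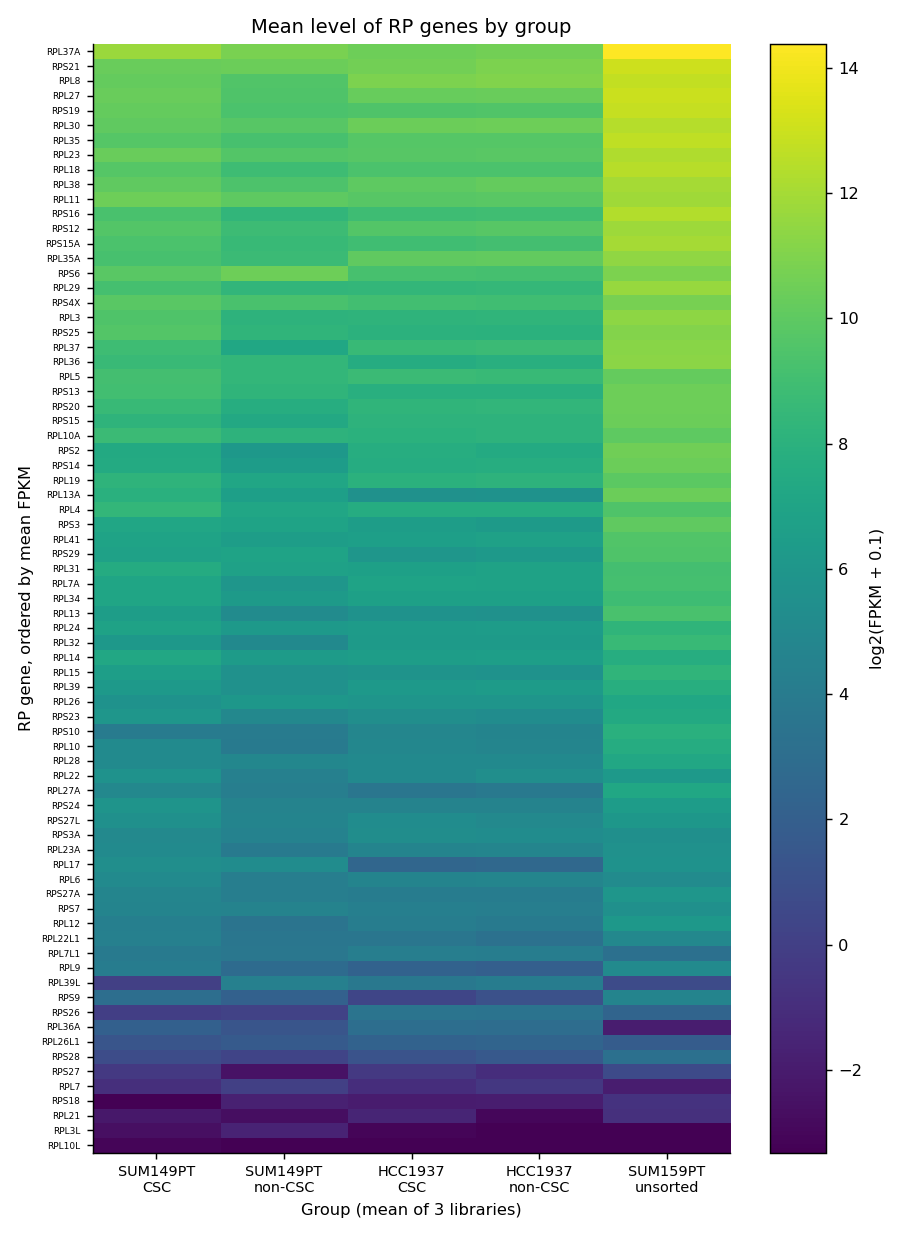
Mean level of members (rows, ordered by mean over 15 libraries) in the 5 groups (columns, 3 libraries each), as log2(FPKM + 0.1) in colour. RPL37A is at the top (mean 5882 FPKM), and RPL39L, RPS26, RPL17 and RPL36A show steps between groups.

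Several core members were near 0 beside abundant pseudogene rows. RPS18, a core small-subunit protein, was listed at 0, 0 and 0 FPKM in SUM149PT CSC, 0.161, 0 and 0.485 in its non-CSC fraction, 0.475, 0 and 0 in HCC1937 CSC, 0.182, 0 and 0.315 in its non-CSC fraction and 0.827, 0.72 and 0 in SUM159PT. Rows of RPS18 pseudogenes, with RPS18P5 the highest, summed to a mean of 1916 FPKM. RPS27, a zinc-binding small-subunit protein, read 0.933, 0 and 1.01 FPKM in SUM149PT CSC, 0, 0.25 and 0 in non-CSC, 0.643, 0.902 and 0.5 in HCC1937 CSC, 0.247, 0.481 and 0.442 in non-CSC and 1.43, 2.33 and 0.774 in SUM159PT. Its pseudogene rows, with RPS27P3 and RPS27P4 the highest, summed to 1629 FPKM.

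RPL21, a core large-subunit protein, was at 0, 0.284 and 0.077 FPKM in SUM149PT CSC, 0.165, 0 and 0 in non-CSC, 0, 0.414 and 0.359 in HCC1937 CSC, 0, 0 and 0.0767 in non-CSC and 0.501, 0.561 and 0.268 in SUM159PT. Its pseudogene rows, led by RPL21P16, averaged 169.9 FPKM. RPL7, another core large-subunit protein, averaged 0.506 FPKM beside 589 FPKM in its pseudogene rows, led by RPL7P9. Of the low members, 4 had pseudogene rows that summed to at least 100 FPKM. RPL10L, a testis paralogue of RPL10, stood at 0.0503 FPKM in SUM149PT CSC replicate 3 and at 0 in the other 14 libraries, and RPL3L, the heart and muscle paralogue of RPL3, averaged 0.0658 FPKM.

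The table had 904 RP pseudogene rows, of which 374 were above 0 in at least 1 library, 103 averaged at least 1 FPKM and 41 at least 100 FPKM. They belonged by symbol to 61 members, and for 25 members the pseudogene rows summed to more than the member. RPL13A, which also serves in translational silencing in monocytes, averaged 361 FPKM beside 5653 FPKM in its pseudogene rows, almost all of it RPL13AP5. RPS2 averaged 422 FPKM beside 3109.9 FPKM, RPL39 100.4 FPKM beside 3352 FPKM and RPS28 3.41 FPKM beside 3235 FPKM. Each member's coding sequence was cut into all stretches of 50 bases, and the share found in another annotated gene was taken. In the 30 members with at most 25% shared stretches the median of the mean levels was 961 FPKM, and their pseudogene rows had a median sum of 0.0637 FPKM. The 26 members with over 25% to 60% had 175 FPKM and 114 FPKM, and the 24 members with over 60% had 28.7 FPKM and 550.2 FPKM. Across the 80 genes, which are not independent, the Spearman correlation between level and shared percent was -0.51, given as a description. How fragments matching several places were assigned is not given in the sources used here, so the levels of members with shared sequence are uncertain. RPL17, RPL21, RPL22, RPL39, RPL41, RPL7, RPS26, RPS27 and RPS28 share at least 96.7% of their stretches, while the low paralogues RPL10L and RPL3L share 0.169% and 0%.

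**Figure D3:**
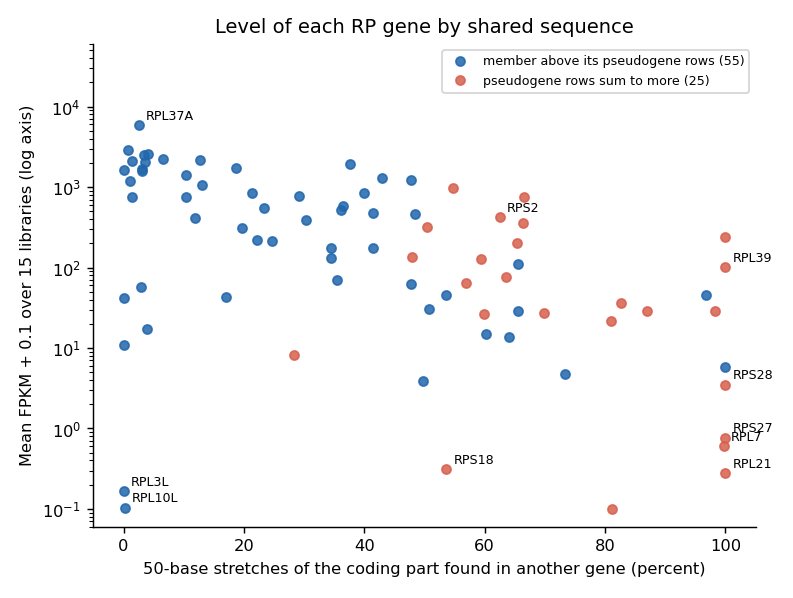
Mean level over 15 libraries (y axis, FPKM + 0.1, log scale) of each of the 80 members against the percent of its 50-base coding stretches found in another gene (x axis), with 1 point per gene, coloured by whether its pseudogene rows sum to more than the member (25 genes). Levels fall off to the right, from a median of 961 FPKM in the 30 genes at or below 25% to 28.7 FPKM in the 24 genes over 60%.

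Within SUM149PT, RP mRNAs were higher in the CSC fraction for most members of either subunit, by 1.70 on the log2 scale for RPL37, the largest rise among the called members, while RPL39L and RPS6 were lower. Among the 77 members tested, 55 were called higher and 5 lower in CSC (limma, adjusted p of at most 0.05), that is 71.4% and 6.49%, where 33.3% and 41.5% of the 16037 genes tested were called higher and lower. The paper limits the adjusted p to 0.0001 and an enrichment score to 1 or more, read here as a change no smaller than 1 on the log2 scale. At that limit 7 members were higher and 1 lower (9.09% and 1.3%), beside 7.71% and 12.8% of all genes. The higher count was thus near the all-gene share. The 7 were RPL37, RPL22, RPL3, RPL13, RPL13A, RPL4 and RPS24, and the lower member was RPL39L. The median log2 fold change was 0.76 over the members and -0.11 over all genes, and the middle of the distribution ran from 0.37 to 1.01. Fold changes were taken on log2(FPKM + 0.1), which understates those of genes near 0.

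Most genes of either subunit rose: 36 of 47 tested RPL genes were called higher and 4 lower (76.6% and 8.51%), and 19 of 30 RPS genes higher and 1 lower (63.3% and 3.33%). In 57 members every CSC library was above every non-CSC library and in 4 every CSC library was below, that is 74.0% and 5.19%, beside 35.3% and 43.4% of the genes tested. Of the 47 members that averaged at least 100 FPKM, 40 rose and 1, RPS6, fell, and of the 30 lower tested members 15 rose and 4 fell. Among the 29 tested members with at most 25% shared stretches, 20 rose and 3 fell, and among the 48 others 35 rose and 2 fell. Quantile normalization moved the all-gene median by 0.20, and the members then lay 0.61 above it, against 0.87 as deposited. It turned the all-gene balance to 41.2% higher and 34.5% lower, so the share of calls that were higher went from 44.6% to 54.4%, with 57 members higher and 3 lower. No called member changed sign under upper quartile, quantile or TPM scaling. The p-values measure only the spread between libraries, which may be technical, since the labels do not say whether these came from separate cultures.

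Promoters of 8 of the genes named in these comparisons are shown because most members moved together. RefSeq sequences (GRCh38.p14) matched 63 of the 80 members by symbol, RPL37 and RPL39L not among them. Other named genes are not shown, and each of the 8 is printed from 60 bases before the annotated start to 20 bases from it. Capitals mark the 4 motifs searched on both strands, which were CTTTCC, the ETS-family motif CCGGAAG, the YY1-like motif AAGATGGC and the TATA box TATAAA, none of which contains another. The windows lie on the minus strand at chr11:119018324-119018403 (RPS25), chr1:6199576-6199655 (RPL22), chr22:39319604-39319683 (RPL3), chr9:19380217-19380296 (RPS6), chr17:8383174-8383253 (RPL26), chr3:170870176-170870255 (RPL22L1) and chr15:63157458-63157537 (RPS27L), and on the plus strand at chrX:101390951-101391030 (RPL36A).
RPS25: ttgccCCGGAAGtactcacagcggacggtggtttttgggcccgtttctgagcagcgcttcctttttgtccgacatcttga
RPL22: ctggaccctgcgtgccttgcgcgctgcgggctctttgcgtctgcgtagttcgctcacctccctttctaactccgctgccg
RPL3: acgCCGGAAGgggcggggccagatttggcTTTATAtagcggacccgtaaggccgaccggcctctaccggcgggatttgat
RPS6: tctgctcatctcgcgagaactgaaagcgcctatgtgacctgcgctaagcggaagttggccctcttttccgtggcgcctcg
RPL26: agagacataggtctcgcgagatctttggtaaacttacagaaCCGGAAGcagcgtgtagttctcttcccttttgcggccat
RPL22L1: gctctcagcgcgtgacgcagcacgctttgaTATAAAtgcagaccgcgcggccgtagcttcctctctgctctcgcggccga
RPS27L: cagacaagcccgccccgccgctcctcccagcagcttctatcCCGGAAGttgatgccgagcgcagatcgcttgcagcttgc
RPL36A: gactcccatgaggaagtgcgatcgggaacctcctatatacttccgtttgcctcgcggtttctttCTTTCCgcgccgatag
Over windows of 300 bases, CCGGAAG lay in 34.2% of the 79 member windows and 10.3% of all 35116 windows, and CTTTCC in 45.6% and 26.3%. AAGATGGC lay in 8.86% and 2.89%, and TATAAA in 7.59% and 11.5%. A start at C followed by 4 pyrimidines, as in a TOP tract, was found in 54.4% and 4.07%, and in each window shown except those of RPL3 and RPS27L. CCGGAAG was found in the printed windows of RPS25, RPL3, RPL26 and RPS27L. RPS6 and RPL26, which fell in SUM149PT CSC, and RPS25 and RPL22, which rose, have the start at C alike. A match is a description of letters.

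Among the large-subunit proteins, RPL37, a zinc-binding protein, rose the most of the called members. RPL37 stood at 413, 529 and 491 FPKM in the SUM149PT CSC libraries and at 153, 127 and 160.2 FPKM in the non-CSC libraries. All 3 CSC libraries were above all 3 non-CSC libraries, with a log2 fold change of 1.70 (SE 0.133, adjusted p = 9.46e-05). RPL3, which reaches to the peptidyl transferase centre, stood at 677, 757 and 709.6 FPKM in CSC and 288, 261 and 300.2 FPKM in non-CSC. It was higher in 3 of 3 CSC libraries, by 1.34 (SE 0.0803, adjusted p = 3.46e-05). RPL22, whose paralogue RPL22L1 can take its place, stood at 49.8, 52.9 and 55.5 FPKM in CSC and 21.1, 21.5 and 19.7 FPKM in non-CSC. Again the groups did not overlap (log2 fold change 1.34, SE 0.0693, adjusted p = 2.02e-05). RPL22 shares 96.7% of its stretches with other genes.

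The large-subunit members with the highest levels also rose. RPL37A stood at 3097, 3736 and 3232 FPKM in CSC and 1820.2, 1469 and 2029 FPKM in non-CSC, without overlap (log2 fold change 0.93, adjusted p = 0.00164). RPL8 stood at 1056, 1253 and 1152 FPKM in CSC and 771, 720.5 and 790 FPKM in non-CSC. Its 3 CSC libraries were the higher ones, by 0.60 (adjusted p = 0.0011). RPL27 stood at 1077, 1435 and 1346 FPKM in CSC and 751, 695 and 732 FPKM in non-CSC, again without overlap (0.81, adjusted p = 0.00134). RPL10, which joins the large subunit late in its maturation, stood at 32.9, 41.2 and 33.7 FPKM against 15.9, 14.5 and 16.3 FPKM. Its groups were apart as well, by 1.20 (adjusted p = 0.000173). The remaining RPL genes called higher were RPL10A, RPL11, RPL12, RPL13, RPL13A, RPL14, RPL15, RPL18, RPL19, RPL22L1, RPL23, RPL23A, RPL24, RPL27A, RPL29, RPL31, RPL32, RPL34, RPL35, RPL35A, RPL36A, RPL38, RPL39, RPL4, RPL5, RPL6, RPL7A, RPL7L1 and RPL9.

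Among the small-subunit proteins, RPS25, which several viral internal ribosome entry sites require, stood at 645, 804 and 918 FPKM in SUM149PT CSC and 271, 311 and 333 FPKM in non-CSC. Every CSC library was above every non-CSC library (log2 fold change 1.36, SE 0.153, adjusted p = 0.000427). RPS2, which lies at the mRNA entry channel, stood at 148, 193 and 180.2 FPKM in CSC and 68.3, 67.2 and 69.7 FPKM in non-CSC. It was higher in 3 of 3 CSC libraries (1.33, SE 0.109, adjusted p = 0.000115). RPS21 stood at 1152, 1445 and 1374 FPKM in CSC and 1302, 1268 and 1581 FPKM in non-CSC. Those groups overlapped (log2 fold change -0.06, adjusted p = 0.669). Among the other RPS genes called higher were RPS12, RPS13, RPS14, RPS15, RPS15A, RPS16, RPS19, RPS20, RPS23, RPS24, RPS27A, RPS27L, RPS3A and RPS4X.

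Of 6 members named by choice, RPL5, RPL11, RPS19, RPS27A and RPS4X rose and RPS6 fell. RPL5 and RPL11 bind MDM2 when ribosome assembly is disturbed. RPL5 stood at 535, 580 and 549 FPKM in SUM149PT CSC and 366, 304 and 352 FPKM in non-CSC, and RPL11 at 1285, 1669.6 and 1371 FPKM in CSC and 1113, 926 and 1069 FPKM in non-CSC. Both were higher in 3 of 3 CSC libraries, RPL5 by 0.71 (adjusted p = 0.000675) and RPL11 by 0.47 (adjusted p = 0.0162, with 0.00184 to 0.0589 over the alternatives and no call with replicate number as a block). RPS19 stood at 1078, 1271 and 1114 FPKM against 598, 580.3 and 812 FPKM, without overlap (0.81, adjusted p = 0.0038). RPS27A, made as a fusion with ubiquitin, stood at 23.4, 30.3 and 27.4 FPKM against 19.5, 17.3 and 18.7 FPKM. RPS4X, encoded on the X chromosome, stood at 865, 989 and 910.3 FPKM against 659, 553 and 646 FPKM. Neither overlapped, and they were higher by 0.54 (adjusted p = 0.0057) and 0.58 (adjusted p = 0.00229).

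RPS6, the substrate of S6 kinase downstream of mTOR, was lower in CSC. It stood at 840.5, 993 and 959 FPKM in the SUM149PT CSC libraries and 1517, 1303 and 1383 FPKM in the non-CSC libraries. All 3 CSC libraries were below all 3 non-CSC libraries, with a log2 fold change of -0.59 (SE 0.0946, adjusted p = 0.00197). RPL26, a large-subunit protein near the exit tunnel, stood at 46.8, 54.0 and 55.9 FPKM in CSC and 68.5, 62.4 and 64.5 FPKM in non-CSC. It was lower in 3 of 3 CSC libraries, by a log2 fold change of -0.32 (SE 0.0879, adjusted p = 0.0177), and was not called without SUM149PT non-CSC replicate 1 (-0.28, adjusted p = 0.0562). Over the alternatives its adjusted p ran from 0.00249 to 0.0585.

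RPL3L and RPL7 were also called lower, close to the floor of detection. RPL3L stood at 0, 0.0302 and 0.17 FPKM in SUM149PT CSC and 0.342, 0.232 and 0.161 FPKM in non-CSC. RPL7 stood at 0.201, 0.745 and 0.34 FPKM in CSC and 0.824, 0.969 and 0.917 FPKM in non-CSC. The RPL3L groups overlapped and the RPL7 groups did not (log2 fold changes -1.15 and -1.06, adjusted p = 0.0442 and 0.0433). RPL3L was not called without SUM149PT CSC replicate 1 (-0.85, adjusted p = 0.113) or 2 (-1.04, 0.119) or without non-CSC replicate 1 (-0.95, 0.126), 2 (-1.16, 0.0929) or 3 (-1.33, 0.0552), with a range of 0.00449 to 0.191 over the alternatives. RPL7 was not called without CSC replicate 1 (-0.72, adjusted p = 0.0834) or 3 (-0.99, 0.108) or without non-CSC replicate 1 (-1.11, 0.0847), 2 (-1.01, 0.104) or 3 (-1.04, 0.101), with a range of 0.00203 to 0.256. With its pseudogene rows added, RPL7 was higher in CSC, by 0.46. The count of members called lower, 5, was 3 without SUM149PT CSC replicate 1, 2 without non-CSC replicate 1 and 3 without non-CSC replicate 3.

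Among the 17 tested members that were not called were RPL17, RPL26L1, RPL28, RPL30, RPL36, RPL41, RPS3, RPS7, RPS9, RPS10, RPS18, RPS21, RPS26, RPS27, RPS28 and RPS29. RPL10L and RPL21 were among those that averaged under 0.1 FPKM in the line and were not tested. RPS9, a small-subunit protein that affects the accuracy of decoding, varied within groups, at 2.63, 20 and 1.78 FPKM in CSC and 0.142, 12.5 and 0.551 FPKM in non-CSC. RPS28, a small-subunit protein at the mRNA exit, stood at 3.3, 1.17 and 0.515 FPKM against 1.13, 0.413 and 1.84 FPKM. Both overlapped between the fractions. Of the 17, 8 were called without a given library. Among these were RPL26L1 without CSC replicate 2 (-0.35, adjusted p = 0.0402) or non-CSC replicate 2 (-0.37, 0.0218), RPS26 without CSC replicate 3 (-0.40, 0.0385), RPS27 without CSC replicate 2 (2.82, 0.0135) and RPS18 without non-CSC replicate 2 (adjusted p = 0.0059). Their adjusted p over the alternatives ran from 0.0218 to 0.865, 0.0385 to 0.752, 0.005 to 0.449 and 0.0059 to 0.231. RPL30, RPL36 and RPS3 were called higher without CSC replicate 1 (0.33, 0.37 and 0.29, adjusted p = 0.0379, 0.0156 and 0.0407), and RPS9 without non-CSC replicate 2 (3.56, adjusted p = 0.0443).

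In HCC1937 the RP genes differed little between the fractions. RPS27L, a paralogue of RPS27, was the called member. RPL37, RPL3 and RPS25, which rose in SUM149PT, overlapped between the HCC1937 fractions, while RPL39L and RPL22 were lower in 3 of 3 CSC libraries and not called in the main fit. Among the 77 members tested, 1 was called higher and 0 lower (limma), where 10.3% and 15.3% of the 15582 genes tested were called, and at an unadjusted p of at most 0.05 the counts were 2 and 2. At the paper's limit limma called 0 members, against 0% and 0% of all genes in the respective directions. The paper does report differentially expressed genes in HCC1937, so this fit did not reproduce its calls. The count of 0 therefore says nothing about the members. The median log2 fold change was -0.05 over the members and -0.03 over all genes, with a range of -0.54 to 1.25. Fold changes were positive for 25 members and negative for 52, but quantile normalization turned the sign of 22 and TPM scaling that of 30. In 4 members the CSC libraries were all above and in 4 all below the non-CSC libraries, that is 5.19% each way, beside 19.1% and 24.3% of the genes tested.

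RPS27L stood at 39.4, 39.6 and 37.0 FPKM in HCC1937 CSC and 29.3, 33.8 and 31.0 FPKM in non-CSC. The CSC libraries were higher in 3 of 3, by 0.30 (SE 0.0803, adjusted p = 0.0436). It was not called without HCC1937 CSC replicate 1 (0.29, adjusted p = 0.0946), 2 (0.28, 0.128) or 3 (0.33, 0.0731), nor without non-CSC replicate 1 (0.25, 0.129), 2 (0.36, 0.0534) or 3 (0.30, 0.109). Over all alternatives its adjusted p ran from 0.0151 to 0.154. The count of members called higher was 0 without CSC replicate 2 or without non-CSC replicate 1, 2 or 3, and the count called lower was 1 without CSC replicate 1 or non-CSC replicate 3. In SUM149PT, RPS27L stood at 43.6, 50.3 and 46.7 FPKM in CSC and 23.1, 23.7 and 28.3 FPKM in non-CSC. There too the fractions were apart, by 0.91 (SE 0.104, adjusted p = 0.000468). It was the member called in both lines in the same direction, and 0 members were called in opposite directions by limma.

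TPM scaling moved the all-gene median of this comparison by 0.12, and the members lay at -0.02 relative to it with either scaling. The share of calls that were higher was 40.3% as deposited, 52.8% after quantile normalization and 56.1% after TPM scaling, and the members called were then 4 higher and 1 lower, and 4 higher and 0 lower. RPL10L and RPL3L were among those not tested in HCC1937, and RPL21 was called without CSC replicate 1 (2.01, adjusted p = 0.0136, with 0.0136 to 0.580 over the alternatives). RPL9 was called higher without CSC replicate 3 (0.36, adjusted p = 0.0404). RPL22 stood at 37.8, 33.4 and 30.2 FPKM in HCC1937 CSC and 46.1, 41.1 and 43.9 FPKM in non-CSC. The 3 CSC libraries were the lower ones, at -0.37 (SE 0.105, adjusted p = 0.0507), and it was called lower in 11 of 20 alternatives, among them upper quartile and quantile scaling and the fit without CSC replicate 1 (-0.46, adjusted p = 0.0293). Its adjusted p ran from 0.00589 to 0.150 over the alternatives.

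The difference of the CSC effects between the lines was tested directly. RPL37, RPL22, RPL3, RPS25 and RPS2 had the more positive effect in SUM149PT, and RPL39L and RPS6 the more negative. Of the 77 members tested over the 12 sorted libraries, 53 had a more positive and 2 a more negative effect in SUM149PT, where 28.1% and 33% of 16451 genes did. The median difference was 0.79 over the members and -0.08 over all genes. Quantile normalization moved the all-gene median by 0.13, and the members then lay 0.61 above it, against 0.87 as deposited, with 54 and 2 members called. No called member changed sign under the 3 scalings.

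RPL37 stood at 431, 367 and 349 FPKM in HCC1937 CSC and 435, 447 and 385 FPKM in its non-CSC fraction, which overlapped. The effect of 1.70 in SUM149PT against -0.15 in HCC1937 differed by 1.85 (SE 0.179, adjusted p = 1.21e-05). RPL3 stood at 323, 291 and 273 FPKM against 309, 309 and 281 FPKM in HCC1937, again with overlap, and its effects differed by 1.36 (SE 0.119, adjusted p = 6.18e-06). RPL22, lower in HCC1937 CSC and higher in SUM149PT CSC, differed by 1.71 (SE 0.125, adjusted p = 1.72e-06). RPS25 stood at 323, 249 and 219 FPKM against 280.5, 272 and 212 FPKM in HCC1937. Those groups overlapped, and the effects differed by 1.32 (SE 0.254, adjusted p = 0.00126).

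RPS2 stood at 241, 216 and 172 FPKM in HCC1937 CSC and 189, 192 and 151 FPKM in non-CSC, with overlap, and its effects differed by 1.10 (SE 0.205, adjusted p = 0.00104). RPS6 stood at 659, 593 and 564 FPKM against 558, 591 and 545 FPKM in HCC1937, also with overlap. Its effect was -0.59 in SUM149PT and 0.10 in HCC1937, a difference of -0.69 (SE 0.126, adjusted p = 0.000932). RPS27L, called in both lines, had the larger effect in SUM149PT, by 0.61 (SE 0.131, adjusted p = 0.00262).

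**Figure D4:**
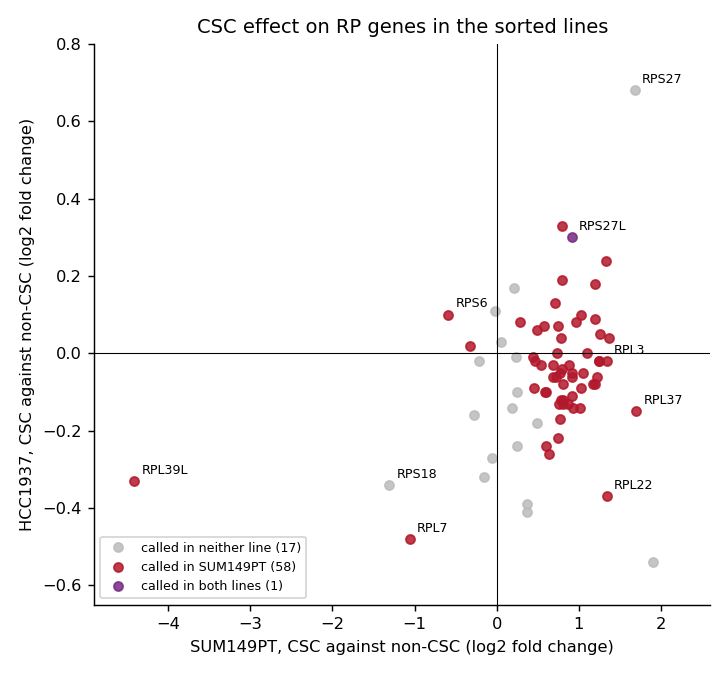
Log2 fold change of CSC against non-CSC in SUM149PT (x axis) and in HCC1937 (y axis, on a finer scale) for the members tested in both lines, with 1 point per gene, coloured by the lines in which it was called (3 libraries per fraction). In SUM149PT most points lie right of 0 (median 0.76) and RPL39L lies far left (-4.41), while in HCC1937 they lie around 0 (median -0.05, with signs that turn for 30 members under TPM scaling).

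Paralogues did not always follow their parent genes. RPL39L, the paralogue of RPL39 that is abundant in testis, stood at 0.932, 1.34 and 0.551 FPKM in SUM149PT CSC and 22.9, 17.4 and 23.0 FPKM in non-CSC. In HCC1937 it stood at 14.3, 13.4 and 13.5 FPKM in CSC and 17.7, 20.1 and 14.4 FPKM in non-CSC, and in SUM159PT at 1.8, 1.43 and 1.42 FPKM. SUM149PT CSC and SUM159PT were thus low and the other groups high, and the SUM149PT fractions were far apart in all 3 libraries (log2 fold change -4.41, SE 0.306, adjusted p = 5.92e-05). In HCC1937 all 3 CSC libraries were also below the non-CSC libraries, but RPL39L was not called (-0.33, SE 0.132, adjusted p = 0.129), except without non-CSC replicate 3 (-0.46, adjusted p = 0.0338). Its adjusted p in HCC1937 ran from 0.0338 to 0.326 over the alternatives. The effects in the lines differed by -4.08 (SE 0.356, adjusted p = 5.88e-06). RPL39L shares 0% of its stretches with another gene.

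RPL39, which lines the peptide exit tunnel, stood at 72.9, 79 and 78.9 FPKM in SUM149PT CSC and 47.2, 39.3 and 65.5 FPKM in non-CSC. It was higher in 3 of 3 CSC libraries, by 0.63 (SE 0.19, adjusted p = 0.0248), but was not called without CSC replicate 1 (0.67, adjusted p = 0.0511), 2 (0.61, 0.0692) or 3 (0.62, 0.0675) or without non-CSC replicate 1 (0.60, 0.0727). Over the alternatives its adjusted p ran from 0.00199 to 0.0727. All its stretches occur in other genes. RPL39L made up 1.26%, 1.67% and 0.694% of the summed FPKM of RPL39L and RPL39 in SUM149PT CSC and 32.7%, 30.7% and 26.0% in non-CSC. It made up 16.3% ± 2.53 in HCC1937 CSC, 17.0% ± 2.30 in HCC1937 non-CSC and 0.72% ± 0.111 in SUM159PT (SD, n = 3). The HCC1937 fractions overlapped in this percentage and the SUM149PT fractions did not. The pseudogene rows of RPL39, left out of it, summed to means of 2516, 1364, 1622, 1840.3 and 9415 FPKM in the 5 groups. With them in the sum the percentage would be far lower in each group.

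RPL22L1 rose in SUM149PT CSC, but less than RPL22. RPL22L1 stood at 18.7, 22.2 and 23.1 FPKM in SUM149PT CSC and 11.5, 12.2 and 12.8 FPKM in non-CSC, without overlap (log2 fold change 0.80, SE 0.0979, adjusted p = 0.000626). In HCC1937 it stood at 14.6, 11 and 10.7 FPKM in CSC and 10.5, 9.22 and 8.71 FPKM in non-CSC, also without overlap (0.33, adjusted p = 0.168), and in SUM159PT at 31.3, 30.9 and 31.8 FPKM. Its part of the sum with RPL22 was 28.7% ± 1.21 in SUM149PT CSC, 37.0% ± 2.19 in non-CSC, 26.2% ± 1.59 in HCC1937 CSC, 17.8% ± 1.11 in non-CSC and 29.3% ± 1.68 in SUM159PT (SD, n = 3). It was thus lower in the CSC fraction of SUM149PT and higher in that of HCC1937, with no overlap in either line, and this difference was not tested.

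RPL26L1, the paralogue of RPL26, stood at 2.4, 2.76 and 2.33 FPKM in SUM149PT CSC and 3.18, 2.68 and 3.31 FPKM in non-CSC, which overlapped. It was 4.58%, 4.48%, 7.17%, 8.09% and 2.26% of the pair in the 5 groups. The pseudogene rows of RPL26, left out of this, summed to means of 186, 247, 159.6, 180.1 and 687 FPKM. RPL7L1, a nucleolar paralogue of RPL7 that acts in ribosomal RNA processing, stood at 15.7, 15.2 and 15.4 FPKM in SUM149PT CSC and 13.2, 12.9 and 12.2 FPKM in non-CSC. It was higher in 3 of 3 CSC libraries, by 0.28 (adjusted p = 0.00534). In HCC1937, RPL7L1 stood at 21, 18 and 18.1 FPKM against 18, 18.3 and 17.5 FPKM, with overlap.

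**Figure D5:**
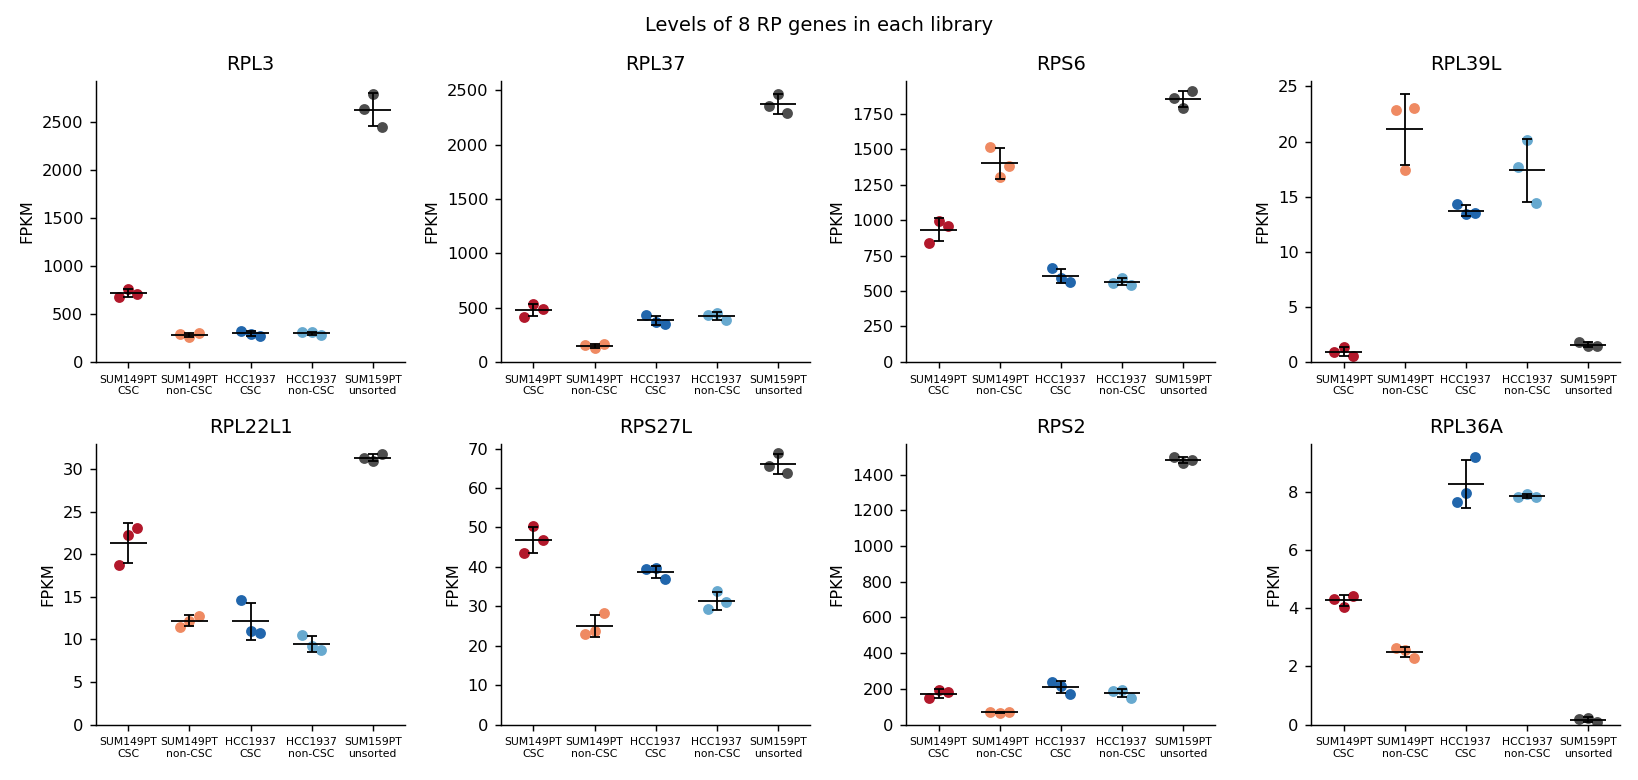
FPKM (y axes, each from 0) of RPL3, RPL37, RPS6, RPL39L, RPL22L1, RPS27L, RPS2 and RPL36A in the 5 groups (x axes), with 1 point per library, the mean as a line and the SD as bars (n = 3). RPL3 and RPL37 are higher and RPS6 and RPL39L lower in SUM149PT CSC than in non-CSC, RPS27L is higher in the CSC fraction of both lines, and RPL36A is lowest in SUM159PT (0.208, 0.233 and 0.0779 FPKM).

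Between the lines, the direction of the RP genes depended on the fraction compared. HCC1937 CSC was below SUM149PT CSC for most members. HCC1937 non-CSC was above SUM149PT non-CSC for many, but the share called higher was not far above that of all genes. RPS26 and RPL36A were higher and RPL17 and RPL13A lower in HCC1937 in both fractions. Of the 77 members tested over the 15 libraries, 11 were called higher and 43 lower in HCC1937 CSC, where 45.1% and 31.8% of the 16373 genes tested were. In the non-CSC fractions 38 were called higher and 11 lower (49.4% and 14.3%), where 41.4% and 35.4% of all genes were. After upper quartile scaling the non-CSC counts were 28 higher and 21 lower, where 33.9% and 42.0% of all genes were. The members' median log2 fold changes were -0.34 and 0.34, beside 0.22 and 0.09 over all genes. These comparisons share their groups with those within the lines.

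Called higher in HCC1937 in both fractions were 10 members, among them RPL26L1, RPL30, RPL35A, RPL36A, RPL7L1, RPL8, RPS10, RPS26 and RPS3A. Called lower in both were 11, RPL13A, RPL17, RPL22L1, RPL27A, RPL36, RPL9, RPS13, RPS29, RPS3, RPS4X and RPS6. Another 14 were lower in CSC and higher in non-CSC: RPL10, RPL13, RPL18, RPL22, RPL23A, RPL37, RPL4, RPL5, RPL6, RPS15A, RPS16, RPS20, RPS23 and RPS27L. The reverse was called for 0 members by limma. The share of all genes with each of these joint patterns is not given here, so the counts only list the members. RPL5 turned its direction in the non-CSC fractions under upper quartile scaling.

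RPS26, a small-subunit protein mutated in some patients with Diamond-Blackfan anaemia, stood at 16.2, 9.93 and 7.28 FPKM in HCC1937 CSC and 11.9, 10.9 and 9.33 FPKM in HCC1937 non-CSC. In SUM149PT it stood at 0.652, 0.833 and 1.11 FPKM in CSC and 1.08, 0.991 and 0.946 FPKM in non-CSC. Every HCC1937 library was above every SUM149PT library, by 3.49 in CSC (SE 0.252, adjusted p = 5.19e-08) and 3.29 in non-CSC (SE 0.252, adjusted p = 9.82e-08). All its stretches are shared with other genes, while its pseudogene rows summed to 0.0208 FPKM. RPL36A, a large-subunit protein encoded on the X chromosome, stood at 7.64, 7.95 and 9.2 FPKM in HCC1937 CSC and 7.82, 7.94 and 7.83 FPKM in non-CSC, and at 4.33, 4.05 and 4.43 FPKM in SUM149PT CSC and 2.62, 2.58 and 2.3 FPKM in non-CSC. HCC1937 was higher in all libraries, by 0.93 (SE 0.181, adjusted p = 0.00044) and 1.62 (SE 0.181, adjusted p = 3.59e-06). RPL39L was higher in HCC1937 CSC than in SUM149PT CSC in 3 of 3 libraries, by 3.80 (SE 0.236, adjusted p = 1.22e-08).

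RPL17, a protein that lines the peptide exit tunnel, stood at 41.4, 48.1 and 41.6 FPKM in SUM149PT CSC and 39.1, 34.5 and 41.0 FPKM in non-CSC. In HCC1937 it stood at 5.48, 4.7 and 7.09 FPKM in CSC and 6.17, 6.29 and 6.27 FPKM in non-CSC. All HCC1937 libraries were lower, at log2 fold changes of -2.92 (SE 0.132, adjusted p = 5.88e-10) and -2.59 (SE 0.132, adjusted p = 2.08e-09). RPL17 shares 98.2% of its stretches. RPL13A stood at 222, 251 and 235 FPKM in SUM149PT CSC and 103, 97.4 and 111 FPKM in non-CSC, and at 55.6, 47.9 and 42.4 FPKM in HCC1937 CSC and 56.6, 52.1 and 45.7 FPKM in non-CSC. HCC1937 was lower in every library, at -2.28 (SE 0.109, adjusted p = 9.42e-10) and -1.01 (SE 0.109, adjusted p = 2.4e-06). RPL9, a large-subunit protein at the base of a stalk, stood at 15.6, 18.0 and 16.8 FPKM in SUM149PT CSC and 5.08, 5.3 and 3.6 FPKM in HCC1937 CSC, without overlap (-1.84, SE 0.147, adjusted p = 1.3e-07). RPS6 was lower in all HCC1937 non-CSC libraries than in SUM149PT non-CSC, at -1.31 (SE 0.085, adjusted p = 2.03e-08).

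Upper quartile scaling moved the all-gene median by -0.22 in the CSC fractions and -0.21 in the non-CSC fractions, quantile normalization by -0.17 in the CSC fractions, and TPM scaling by -0.15 in the non-CSC fractions. Relative to that median the members lay at -0.56 in CSC as deposited, -0.58 after upper quartile scaling and -0.48 after quantile normalization. In non-CSC they lay at 0.25 as deposited, 0.23 after upper quartile scaling and 0.23 after TPM scaling. They lay at 0.15 there after quantile normalization and at 0.15 after removal of the length trend. Upper quartile scaling gave 7 members higher and 50 lower in CSC and 28 higher and 21 lower in non-CSC. The all-gene shares were then 38.0% higher and 37.9% lower in CSC and 33.9% and 42.0% in non-CSC, so the members called higher in non-CSC were near the all-gene share.

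In SUM159PT nearly every RP gene was high in the values as deposited, with RPL36A and RPL7L1 as exceptions against both sorted CSC fractions. RPL7 was also called lower against both (-0.98, adjusted p = 0.0425, and -1.04, adjusted p = 0.0324), but this did not hold under several alternatives. It was not called lower after upper quartile or quantile scaling, with a pseudocount of 1 or after removal of the GC trend (0.18 and 0.01). Both calls were lost without SUM159PT replicate 2 (-0.53, adjusted p = 0.21, and -0.59, 0.163). Against SUM149PT CSC the call was also lost with no minimum and without CSC replicate 2 (-0.58, adjusted p = 0.199) or 3. Against HCC1937 CSC it was lost without CSC replicate 1, 2 or 3. With its pseudogene rows added RPL7 was at 0.04 (adjusted p = 0.756) against SUM149PT CSC and higher, by 0.58 (adjusted p = 0.000117), against HCC1937 CSC. Against SUM149PT CSC, 68 of the 77 tested members were called higher and 3 lower, where 28.3% and 53.3% of the 16373 genes were. Against HCC1937 CSC, 67 were called higher and 6 lower, where 27.6% and 57.2% of all genes were. The members' median log2 fold changes were 1.88 and 2.19, beside -0.60 and -0.85 over all genes. These counts rest on how the libraries are scaled, since the members made up 23.7% of SUM159PT FPKM.

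Against SUM149PT CSC, upper quartile scaling moved the all-gene median by 0.20, quantile normalization by 0.60 and TPM scaling by -1.03, and removal of a GC trend by -0.24. Relative to that median, the members lay at 2.48 as deposited, 2.59, 0.74 and 2.50 in the first 3 of these. Members called were then 73 higher and 2 lower, 53 and 7, and 50 and 14. Among the directions that turned under quantile normalization were those of RPL11, RPL14, RPL22, RPL23, RPL38, RPL4, RPL5, RPL7, RPS24, RPS25, RPS27L, RPS4X and RPS6. The called members that turned under TPM scaling were RPL14, RPL22, RPL22L1, RPL23A, RPL26L1, RPL39L, RPL4, RPL9, RPS24, RPS27L, RPS3A, RPS4X, RPS6 and RPS7. The share of all calls that were higher was 34.7% as deposited, 49.5% after quantile normalization and 17.3% after TPM scaling.

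Against HCC1937 CSC, the shifts were 0.42, 0.83 and -0.98, and -0.18 for the GC trend. The members lay at 3.04 as deposited and at 3.17, 1.22 and 3.02 after these scalings, with 68 higher and 3 lower, 60 and 6, and 61 and 9. RPL26L1 turned under upper quartile scaling. Of the called members, RPL26L1, RPL30, RPL35A, RPL38, RPL5, RPL7, RPL8, RPS4X and RPS6 turned under quantile normalization, and RPL23A, RPL6 and RPS27L under TPM scaling. The share of calls that were higher was 32.5% as deposited, 49.3% after quantile normalization and 17.1% after TPM scaling.

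RPS2 stood at 1501, 1463 and 1479.8 FPKM in SUM159PT, above every SUM149PT CSC library, by 3.10 (SE 0.133, adjusted p = 1.22e-10). RPS10, a small-subunit protein near the mRNA entry, stood at 257, 226 and 233 FPKM in SUM159PT and 13.9, 20.9 and 14.1 FPKM in SUM149PT CSC. SUM159PT was higher in 3 of 3 libraries, by 3.89 (SE 0.252, adjusted p = 8.61e-09). RPL37A stood at 21316, 20849.5 and 21820 FPKM in SUM159PT and 1621, 1378 and 1223 FPKM in HCC1937 CSC, apart in all 3 libraries (3.93, SE 0.132, adjusted p = 9.86e-12). RPL13A stood at 1398, 1433 and 1265 FPKM in SUM159PT. It was 4.82 above HCC1937 CSC in all 3 libraries (SE 0.109, adjusted p = 2.61e-13).

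RPS9 stood at 31.6, 23.7 and 19.0 FPKM in SUM159PT and at 0, 3.55 and 0 FPKM in HCC1937 CSC, where it varied between libraries. The SUM159PT libraries were higher in 3 of 3 (6.20, SE 1.88, adjusted p = 0.00816, with a range of 7e-09 to 0.0351 over the alternatives). RPL36A stood at 0.208, 0.233 and 0.0779 FPKM in SUM159PT, below every sorted library, at -4.05 against SUM149PT CSC (SE 0.181, adjusted p = 1.91e-10) and -4.99 against HCC1937 CSC (SE 0.181, adjusted p = 2.08e-11). RPL7L1 stood at 8.96, 9.93 and 8.42 FPKM in SUM159PT, again below each CSC library, at -0.76 (SE 0.0768, adjusted p = 8.23e-07) and -1.06 (SE 0.0768, adjusted p = 2.7e-08). The size of these changes depended on the scaling and the pseudocount. Over the alternatives RPL36A ran from -5.34 to -2.17 against SUM149PT CSC and from -6.20 to -2.98 against HCC1937 CSC. RPL7L1 ran from -1.85 with TPM scaling to -0.21 (adjusted p = 0.0207) after removal of the GC trend, and from -2.06 to -0.51. Both stayed lower with an adjusted p under 0.05 in each fit. RPL36A shares 73.3% of its stretches with other genes and RPL7L1 60.2%, so their levels are uncertain. Neither has a pseudogene row by symbol, so the fit with such rows added could not change them. The part of fragment assignment in these low levels was not tested. RPL39L was lower than in HCC1937 CSC in 3 of 3 libraries, at -3.07 (SE 0.236, adjusted p = 4.8e-08). RPL26L1 and RPS26 were also called lower against HCC1937 CSC. Not called were RPL17, RPL21, RPL6, RPS18, RPS27 and RPS9 against SUM149PT CSC, and RPL21, RPS18, RPS27 and RPS3A against HCC1937 CSC.

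In SUM149PT most further RP genes and TOP mRNAs were called higher in CSC, and mitochondrial ribosomal proteins were called in both directions. Over all genes 33.3% were called higher and 41.5% lower in this contrast, and 10.3% and 15.3% in HCC1937 CSC. Of 8 RP genes that the symbol rule leaves out, 6 were called higher and 1 lower in SUM149PT CSC (median 0.66). RPLP0, a protein of the ribosomal stalk, stood at 177, 207 and 199 FPKM in CSC and 73.5, 81.1 and 81.0 FPKM in non-CSC, without overlap (log2 fold change 1.31, adjusted p = 4.54e-05). GNB2L1, the ribosome scaffold also called RACK1, stood at 1067, 1217 and 1127 FPKM against 501, 453 and 536 FPKM, likewise apart (1.20, adjusted p = 7.76e-05). RPL36AL, a paralogue of RPL36A, stood at 193, 243 and 224 FPKM against 403, 322 and 389 FPKM. All 3 CSC libraries were lower, at -0.76 (adjusted p = 0.00246). In HCC1937 limma called 0 of the 8 (0 and 0 at an unadjusted p of at most 0.05).

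Of 12 tested mRNAs with a TOP tract, 9 were called higher and 0 lower in SUM149PT CSC (limma, median 0.83). Of 13 in HCC1937 CSC, 1 was called higher and 0 lower (median 0.00). In each line the counts were the same at an unadjusted p of at most 0.05. The 7.69% called higher in HCC1937 was near the 10.3% of all genes, of which 15.3% were called lower. NAP1L1, a histone chaperone, stood at 75.4, 72.7 and 75.7 FPKM in SUM149PT CSC and 27.5, 27.3 and 25.9 FPKM in non-CSC, and at 53.3, 49.0 and 50.9 FPKM in HCC1937 CSC and 37.6, 39.4 and 37.6 FPKM in non-CSC. It was higher in the 3 CSC libraries of each line, by 1.47 (adjusted p = 7.07e-06) and 0.42 (adjusted p = 0.00788). In HCC1937 it was not called after removal of the GC trend, and its adjusted p ran from 0.000277 to 0.0657 over the alternatives. EIF4B, a translation initiation factor, stood at 93.9, 98.3 and 97.4 FPKM against 38.1, 38.4 and 38.3 FPKM in SUM149PT. Its fractions did not overlap (1.33, adjusted p = 7.4e-06). Of 7 snoRNA host genes, 5 were higher and 0 lower in SUM149PT CSC (median 0.67), and limma called 0 in HCC1937 (1 higher and 0 lower at an unadjusted p of at most 0.05). SNHG5 stood at 307, 359 and 335 FPKM against 102, 107 and 108 FPKM in SUM149PT, and SNHG8 at 226, 266 and 245 FPKM against 136, 121 and 167 FPKM. Both were higher in 3 of 3 CSC libraries, by 1.66 (adjusted p = 1.37e-05) and 0.81 (adjusted p = 0.00246).

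Of 25 tested genes of ribosome assembly and RNA polymerase I, 16 rose and 4 fell in SUM149PT CSC (64% and 16%, beside 33.3% and 41.5% of all genes, median 0.46), and limma called 0 in HCC1937 (median 0.07, with 3 higher and 0 lower at an unadjusted p of at most 0.05). FBL, the methyltransferase of ribosomal RNA, stood at 69.1, 77.8 and 71.7 FPKM in SUM149PT CSC and 28.0, 28.7 and 30.6 FPKM in non-CSC. PES1, of the complex that processes large-subunit RNA, stood at 18.7, 19.9 and 20.3 FPKM against 8.16, 8.47 and 8.28 FPKM. Both were higher in 3 of 3 CSC libraries, by 1.32 (adjusted p = 2.36e-05) and 1.23 (adjusted p = 1.44e-05). NOP10, of the pseudouridylation complex, stood at 90.5, 115 and 92.0 FPKM against 227, 174 and 227 FPKM, and TSR1, an assembly factor of the small subunit, at 8.56, 8.18 and 9.48 FPKM against 13.1, 13.8 and 13.5 FPKM. Both were lower in 3 of 3 CSC libraries, at -1.08 (adjusted p = 0.00109) and -0.62 (adjusted p = 0.000521).

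Of 75 tested mitochondrial ribosomal proteins, which translate mRNAs of the mitochondrial genome, 25 were higher and 27 lower in SUM149PT CSC (median -0.05), near the 33.3% and 41.5% of all genes. MRPL36 stood at 98.4, 111 and 109 FPKM in CSC and 27.8, 22.6 and 32.4 FPKM in non-CSC, and MRPS30 at 34.6, 39.6 and 37.3 FPKM against 13.4, 10.5 and 12.5 FPKM. Both were apart and higher in CSC, by 1.95 (adjusted p = 7.19e-05) and 1.61 (adjusted p = 5.18e-05). MRPL49 stood at 15.2, 16.5 and 16.5 FPKM in CSC and 40.2, 39.0 and 41.1 FPKM in non-CSC, and MRPL55 at 9.61, 12.1 and 8.63 FPKM against 22.4, 24.5 and 23.6 FPKM. Both were lower in 3 of 3 CSC libraries, at -1.31 (adjusted p = 1.47e-05) and -1.22 (adjusted p = 0.000358).

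In HCC1937, 2 of 74 tested mitochondrial ribosomal proteins were called higher in CSC and 0 lower by limma (median -0.04, with 4 and 5 at an unadjusted p of at most 0.05). That is 2.7% and 0%, beside 10.3% and 15.3% of all genes. MRPL42 stood at 12.1, 12.7 and 12 FPKM in HCC1937 CSC and 9.44, 9.62 and 9.78 FPKM in non-CSC, and MRPS27 at 25.3, 23.6 and 23.5 FPKM against 17.7, 18.4 and 20 FPKM. Both were higher in 3 of 3 CSC libraries, MRPL42 by 0.35 (adjusted p = 0.0115) and MRPS27 by 0.37 (adjusted p = 0.02). MRPL42 was not called after removal of the GC trend, and its adjusted p ran from 0.00361 to 0.159 over the alternatives. MRPS27 was not called with replicate number as a block, without HCC1937 CSC replicate 1 (0.33, adjusted p = 0.0512), 2 (0.38, 0.0581) or 3 (0.38, 0.0505) or without non-CSC replicate 1 (0.33, 0.0728) or 2 (0.35, 0.0761), with a range of 0.00542 to 0.0761 over the alternatives.

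Of 180 tested RP pseudogene rows, 69 were higher and 22 lower in SUM149PT CSC (38.3% and 12.2%, median 0.55), beside 33.3% and 41.5% of all genes. In HCC1937 CSC 3 were higher and 5 lower (1.67% and 2.78%, median -0.07), beside 10.3% and 15.3%. RPS2P7 stood at 3.97, 2.81 and 4.55 FPKM in SUM149PT CSC and 0.178, 0.156 and 0.543 FPKM in non-CSC, and RPL11P3 at 1.28, 2.45 and 0.878 FPKM against 0.147, 0.0849 and 0.144 FPKM. Both were higher in all 3 CSC libraries, by 3.41 (adjusted p = 0.000501) and 2.76 (adjusted p = 0.000852). RPS14P1 stood at 0.261, 0.706 and 0.407 FPKM in CSC and 6.38, 8.31 and 7.73 FPKM in non-CSC, lower in all 3 CSC libraries (-3.83, adjusted p = 9.88e-05). RPL21P13 was listed at 0, 0 and 0 FPKM in CSC and at 1.33, 2.18 and 1.08 FPKM in non-CSC (adjusted p = 3.67e-05).

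In HCC1937 pseudogene rows with large differences were near 0. RPS2P47 stood at 0.451, 0.367 and 0.535 FPKM in CSC and 0.0611, 0.219 and 0.0966 FPKM in non-CSC. RPL24P6 was listed at 0, 0 and 0 FPKM in CSC and at 0.53, 0.4 and 0.184 FPKM in non-CSC, and RPS18P13 at 0, 0 and 0 FPKM against 0.0927, 0.353 and 0.163 FPKM. The first was higher and the latter pair lower in all 3 CSC libraries. RPS2P47 (1.34, adjusted p = 0.0183) was not called without CSC replicate 1 (0.0542) or 3 (0.0595) or non-CSC replicate 3 (0.0629), and RPS18P13 (-1.51, adjusted p = 0.018) not without CSC replicate 1 (0.0533), 2 (0.0576) or 3 (0.0549). With the pseudogene rows added to each member, 63 members were called higher and 4 lower in SUM149PT CSC, and 1 and 1 in HCC1937 CSC.

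Across the lines, mitochondrial ribosomal proteins were called higher in HCC1937 more often than lower, 50 against 10 of 75 in the CSC fractions and 51 against 12 in the non-CSC fractions. Over all genes, 45.1% were higher and 31.8% lower in HCC1937 CSC, and 41.4% and 35.4% in non-CSC. The snoRNA host genes were lower in HCC1937, 7 of 7 in CSC and 5 of 7 in non-CSC. Called higher and lower in HCC1937 CSC were 2 and 8 TOP mRNAs of 12, 14 and 7 assembly genes of 25, 1 and 6 further RP genes of 8 and 13 and 57 pseudogene rows of 181. In non-CSC these were 7 and 3, 18 and 4, 4 and 2, and 55 and 25. In SUM159PT against SUM149PT CSC, the counts higher and lower were 55 and 19 mitochondrial ribosomal proteins, 5 and 7 TOP mRNAs, 5 and 2 snoRNA host genes, 13 and 12 assembly genes, 7 and 0 further RP genes and 110 and 23 pseudogene rows. Against HCC1937 CSC they were 42 and 25, 6 and 5, 6 and 0, 10 and 13, 8 and 0, and 114 and 30. All-gene shares were 28.3% higher and 53.3% lower in the former contrast and 27.6% and 57.2% in the latter. Of the assembly genes, 52% were higher and 48% lower in the former and 40% and 52% in the latter.

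Transcripts that bear on mRNA selection and RNA quality are listed by group. MALAT1 and NEAT1, long RNAs kept in the nucleus, held 0.036% of FPKM in SUM149PT CSC, 0.07% in non-CSC, 0.123% in HCC1937 CSC, 0.0973% in non-CSC and 0.00278% in SUM159PT. Both were called lower in SUM149PT CSC (median -1.01), and limma called 0 in HCC1937 (median 0.18, and 0 at an unadjusted p of at most 0.05). Histone genes, whose replication-dependent mRNAs lack a poly(A) tail, held 0.0284%, 0.0475%, 0.0794%, 0.0817% and 0.04%, with 4 of 46 called higher and 16 lower in SUM149PT CSC (8.7% and 34.8%, median -0.74) and 1 of 56 higher and 3 lower in HCC1937 CSC (1.79% and 5.36%, median 0.05). All-gene shares were 33.3% and 41.5% in SUM149PT and 10.3% and 15.3% in HCC1937. The structured RNAs RN7SK, RN7SL1, RMRP and RPPH1 held 0.068%, 0.0705%, 0.0684%, 0.0443% and 0.0167%, with 0 of 4 called by limma in SUM149PT CSC (median -0.20, 1 lower at an unadjusted p of at most 0.05) and 1 higher in HCC1937 CSC (median 1.03). The part of these in the RP shares was not tested.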

How the data were processed

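Poly(A) RNA of 15 libraries in 5 groups of 3 was measured. The authors deposited a table of FPKM values for 33158 genes, with no counts, and these values were used as deposited. The submitters' processing notes name Bowtie2 and GRCh38, and the quantification tool, its annotation and the handling of fragments with several matches are not given in the sources used here. Absolute depth was unknown; relative depth was read from the spacing of low FPKM values, as the most frequent ratio to the first SUM149PT CSC library.

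Levels were taken as log2(FPKM + 0.1) and fitted with limma 3.58.1 (lmFit and eBayes) in R 4.3.3, leaving out genes that averaged below 0.1 FPKM over the libraries compared. The 7 comparisons were CSC against non-CSC in each sorted line (6 libraries), the difference of these effects (12 libraries), HCC1937 against SUM149PT in each fraction and SUM159PT against each CSC fraction (15 libraries). P-values were two-sided and adjusted by Benjamini-Hochberg over all genes tested, and those at 0.05 or below were called. Shares of FPKM were compared by an exact two-sided permutation test, adjusted over 6 pairs. Tables and plots were made with Python 3.11.15, pandas 2.3.3, numpy 2.4.6 and matplotlib 3.10.9.

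The members and the lists were chosen with earlier results of these data known. The lists were RP genes outside the symbol rule, mitochondrial ribosomal proteins, TOP mRNAs, snoRNA host genes, ribosome assembly and polymerase I genes, RP pseudogene rows, histone genes, MALAT1 and NEAT1, structured RNAs, and epithelial, mesenchymal, leukocyte, fibroblast and endothelial markers. Genes were named by rule: in each sorted line, up to 5 called members with a mean of at least 1 FPKM and the largest fold change in each direction; the 5 members with the highest mean; members with a group mean under 1 FPKM; paralogues and their parents; up to 5 members called in both lines in the same or in opposite directions; RPL5, RPL11, RPS6, RPS19, RPS27A and RPS4X; in each contrast between lines, the 3 called members with a mean of at least 1 FPKM and the largest fold change in each direction; and from each list the 2 genes that differed most in each direction in each sorted line. RPS28 and the highest pseudogene rows of low members were named after their values were seen. Some genes that these rules reach are not reported here.

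Alternatives were pseudocounts of 0.01 and 1, no minimum or a minimum of 1 FPKM, scaling by TPM, quantile normalization or the upper quartile, a trended eBayes, also made robust, a fit over all 15 libraries, replicate number as a block, each library left out, an adjusted p of at most 0.01, and the paper's limit (adjusted p no higher than 0.0001 and an enrichment score of 1 or more, read here as a change no smaller than 1 on the log2 scale). For the share, genes were left out of the denominator or added to the members. Chosen after seeing the data were removal of a trend on GC content or on length, members with at most 25% shared stretches, and addition of pseudogene rows to their member. Stretches of 50 bases, GC content and length came from GENCODE release 29, to which 24442 genes matched by symbol. Promoter sequences are from RefSeq, GRCh38.p14.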

Additional observations from a re-analysis of the deposited data

Results flagged for a closer look

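By the limma test of the difference between the lines, the CSC effects of 53 RP genes were more positive in SUM149PT than in HCC1937. Those of 2 were more negative. That is 68.8% and 2.6% of the members tested, beside 28.1% and 33% of the 16451 genes tested. Among the members named for each line, the effect was more positive in SUM149PT by 1.85 on the log2 scale for RPL37, 1.71 for RPL22, 1.36 for RPL3, 1.32 for RPS25, 1.10 for RPS2 and 0.61 for RPS27L. It differed by -4.08 for RPL39L and by -0.69 for RPS6. These values are listed because the same contrast gave different effects in the cell lines. The cause was not tested.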

How the results depend on the processing

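The spread rests on 3 libraries per group, and depth limits the members near 0. The labels do not say whether fractions with the same replicate number are paired, and the main fits took them as unpaired. The deviations of libraries with the same number correlated at 0.09, 0.02 and 0.08 in SUM149PT and at -0.08, -0.04 and -0.01 in HCC1937. With 3 libraries per group such weak values cannot decide on pairing. With replicate number as a block, 3 members were called lower in SUM149PT CSC and 0 higher in HCC1937 CSC. The share without the 13 mitochondrially encoded mRNAs was not run, since 0 rows matched the symbols looked for (MT-ND1 and the like). Such mRNAs could be listed under other symbols.

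In SUM149PT CSC, 5 members were called lower as reported. This count was 3 with a pseudocount of 0.01, with no minimum and after quantile normalization, and 2 with the adjusted p held to 0.01. In HCC1937 CSC, the 1 member called higher became 0 with no minimum, after removal of the GC trend and with the adjusted p held to 0.01. The count was also 0 at the paper's limit, which no gene tested passed in this fit. It was 4 after quantile or TPM scaling. Called lower was 1 member in place of 0 with a pseudocount of 1, a minimum of 1 FPKM, upper quartile or quantile scaling, trend, trend and robust, either trend removed, pseudogene rows added, or a fit over 15 libraries.

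At the paper's limit the counts higher and lower were 7 and 1 in SUM149PT, 6 and 1 for the difference between lines, 2 and 10 for HCC1937 against SUM149PT CSC and 10 and 3 for non-CSC. In SUM149PT, 9.09% and 1.3% of the members stood beside 7.71% and 12.8% of all genes. For the difference, 7.79% and 1.3% of the members stood beside 7.12% and 10.6% of all genes. In both, the higher count was near the all-gene share. Between the lines, all-gene shares at that limit were 22.2% and 15.2% in CSC and 19.1% and 17.0% in non-CSC. The members had 2.6% and 13%, and 13% and 3.9%. The counts were 55 and 1 for SUM159PT against SUM149PT CSC, where 16.7% and 39.1% of all genes were called. Against HCC1937 CSC they were 62 and 3, where 15.4% and 42.9% of all genes were. Among members with at most 25% shared stretches, fewer of which exist, the counts were 20 and 3 in SUM149PT, 19 and 2 for the difference, 5 and 18, 12 and 7 (42.9% and 25%, beside 41.4% and 35.4% of all genes), 28 and 0, and 27 and 1 in the same order. For HCC1937 against SUM149PT, upper quartile scaling gave 7 higher in CSC and 21 lower in non-CSC, quantile 18 and TPM 19 lower in non-CSC. For SUM159PT, 7 (quantile) and 14 (TPM) were lower against SUM149PT CSC and 3 (upper quartile) against HCC1937 CSC. The cause was not tested.

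Leaving out each library gave 54 to 57 higher and 2 to 5 lower in SUM149PT, 0 to 1 and 0 to 1 in HCC1937, 48 to 57 and 2 to 3 for the difference, 9 to 13 and 36 to 46 for HCC1937 against SUM149PT CSC, 34 to 41 and 9 to 12 for non-CSC, 66 to 69 and 2 to 3 for SUM159PT against SUM149PT CSC and 67 to 68 and 4 to 6 against HCC1937 CSC. The share differences ran from 3.51 to 4.09 points in SUM149PT, -0.00829 to 0.476 in HCC1937, -2.85 to -2.25 and 0.858 to 1.25 between these lines and 13.4 to 14.0 and 15.9 to 16.4 for SUM159PT. The HCC1937 share difference was -0.0576 without the 50 highest other genes and -0.00829 without HCC1937 CSC replicate 1.

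For 139 results on named genes, 2836 values were computed under the alternatives: 2706 kept direction and side of the limit, 82 lost and 45 gained the call, and 3 turned. With pseudogene rows added to each member, RPL7 was at 0.46 in SUM149PT and 0.45 for the difference, and RPS18 at 0.38 in SUM149PT. The cause was not tested.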
